A study of Mus musculus with 3 samples.

Results

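The splicing factors and heterogeneous nuclear ribonucleoproteins (hnRNPs) of the mouse were followed between the first stage of the permanent kidney and the fetal kidney. The genes were taken by symbol: Hnrnp, the SR proteins (Srsf), the SF3A and SF3B subunits (Sf3a, Sf3b), the small nuclear ribonucleoprotein genes Snrpa to Snrpn, the pre-mRNA processing factors (Prpf) and U2af1 and U2af2. No measured value entered that choice. On the array 62 features with 1 gene symbol matched, for 56 genes, and 55 of these genes (61 features) had a value on all 3 arrays, out of 19015 rows in the whole table. Hnrnpa0, an abundant hnRNP of the A/B type, had a feature without a value on any array. The gene table of the GRCm38.p6 assembly holds 69 protein-coding symbols of the same pattern; the other 13, among them Srsf7, Hnrnpf and Sf3b2, were not analysed here.

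Both groups came from CD1 mice with no genotype or treatment named in the labels. One group was metanephroi at 11.5 days post coitum (dpc), the other fetal kidney at 13.5 dpc, both microdissected and pooled from males and females. Amplified RNA of both ages was hybridised together on each of 3 two-colour oligonucleotide arrays, with the dyes in one order on arrays 1 and 2 and in the other on array 3. Each value is the log2 ratio of the ages on one array, read here as 11.5 over 13.5 dpc, so that a positive value stands for a higher level at 11.5 dpc. That direction is likely, because channel 1 is labelled with the younger material, but it is not settled, and all directions below turn with it. Nor do the labels settle whether array 3, with its dyes exchanged, was already turned to match the others; it was used as deposited, and turning it alone shifts genes unevenly, as given below. The arrays are not stated to come from separate RNA extracts, so the p-values of limma (a linear model with a variance estimate shared across genes) reflect only how far these arrays scatter, possibly for technical reasons. In pools of whole rudiments, fewer cells of a type and less RNA per cell cannot be told apart.

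Splicing removes introns from the primary transcript. It is carried out by the spliceosome, which is built stepwise from the U1, U2, U4, U5 and U6 small nuclear ribonucleoproteins (snRNPs). U1 marks the 5′ splice site, U2AF and then U2 with SF3A and SF3B take the branch point and the 3′ splice site, and the U4/U6 and U5 particles with their Prpf proteins complete the machine. SR proteins mostly promote the use of exons they bind, while many hnRNPs coat the transcript and often oppose exon use; the balance of both sets many alternative exons. Most of these proteins act in nearly every cell. In a developing organ such choices of exons include the epithelial and mesenchymal forms of growth factor receptors and adhesion proteins.

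As an account of the DNA in front of these genes, 5 promoters are shown. They belong to members that had one sign on all arrays (Sf3a3, Sf3b6, Snrpg and Hnrnpab above 0, Hnrnpc below 0) and whose window lies outside the gene models or overlaps only their own by a few bases. Other members meet these terms and are not shown, among them Snrpe, Hnrnpr, Prpf19, Snrpb2 and Srsf6, so the 5 do not stand for the rest. Each is the 150 bases before the first listed start, 5′ to 3′ on the gene's strand, from RefSeq's GRCm38.p6 annotation. Capitals mark matches, on either strand, to the ETS core CCGGAAG, the GC box GGGCGG or the CCAAT box.
Sf3a3 (chr4:124714711-124714860, plus strand): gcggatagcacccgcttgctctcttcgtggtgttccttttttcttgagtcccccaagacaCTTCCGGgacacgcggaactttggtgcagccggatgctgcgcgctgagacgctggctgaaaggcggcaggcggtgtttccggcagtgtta
Sf3b6 (chr12:4817458-4817607, plus strand): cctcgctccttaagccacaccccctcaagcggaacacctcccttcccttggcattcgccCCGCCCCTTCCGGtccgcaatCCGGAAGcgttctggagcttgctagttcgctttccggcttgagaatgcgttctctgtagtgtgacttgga
Snrpg (chr6:86371390-86371539, plus strand): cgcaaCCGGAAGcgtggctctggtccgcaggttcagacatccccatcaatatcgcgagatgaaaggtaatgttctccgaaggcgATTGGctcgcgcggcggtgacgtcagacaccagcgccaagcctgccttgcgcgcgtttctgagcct
Hnrnpab (chr11:51606882-51607031, minus strand): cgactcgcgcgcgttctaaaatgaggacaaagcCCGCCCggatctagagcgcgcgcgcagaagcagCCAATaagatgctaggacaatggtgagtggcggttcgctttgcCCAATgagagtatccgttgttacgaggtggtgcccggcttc
Hnrnpc (chr14:52104022-52104171, minus strand): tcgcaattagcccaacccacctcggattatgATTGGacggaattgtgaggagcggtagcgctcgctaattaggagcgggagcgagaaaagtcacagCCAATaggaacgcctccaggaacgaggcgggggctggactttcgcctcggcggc

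In these windows the ETS core stands once before Sf3a3 and Snrpg and at 2 places before Sf3b6, where its first match directly follows a GC box. The windows of Hnrnpab and Hnrnpc hold 2 CCAAT boxes each and no ETS core. A promoter was listed for 48 of the 55 members. The ETS core was found in 11 of them (22.9%), against 7.46% of 17492 windows of protein-coding genes and 5.68% of all 27025 windows of the same length. A CCAAT box was found in 20 (41.7%, against 27.5% of coding windows and 25.3% of all) and a GC box in 25 (52.1%, against 38.3% and 29.0%). TATAAA was present in 3 (6.25%, against 7.86% and 8.08%), before Sf3b3, Srsf2 and Srsf3. The letters of a YY1 site (AAGATGGCG) were in none of the 48 and in 0.469% of coding windows. The member windows were rich in CpG, with a median of 15 per window against 7 in coding windows. These matches describe the letters only; whether a factor binds there was not measured.

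Across the whole table, the median feature was at 0.010, 0.065 and -0.091 on arrays 1, 2 and 3, with an SD over features of 0.56, 0.79 and 0.97. Over all rows array 1 correlated with array 2 at 0.27 and with array 3 at 0.12, and array 2 with array 3 at -0.12. Over the 55 members the SD was 0.49, 0.62 and 0.89. As labelled, the tissue can be checked only as ratios, since spot intensities were not used here. Of 17 listed kidney genes 15 were measured. On all arrays 8 of them, Pax8, Wnt4 and Cdh16 included, were below 0 (53.3%, against 18.5% of rows). Foxd1 (mean 0.72 ± 0.36) and Ret (0.30 ± 0.20) were above 0 on all (13.3%, against 16.8%). Red blood cell genes were above 0 on all arrays in 9 of 12 (75%, against 16.8% of rows), and the other 3 had mixed signs. Their median was 1.23, with mean ratios up to 4.07 (Hbb-bh1, an embryonic globin). On arrays 1, 2 and 3, Hbb-bh1 had 3.13, 5.26 and 3.81, Ermap 3.39, 3.80 and 3.34 and Cdh16 -1.54, -1.76 and -1.58. For these large ratios array 3, as deposited, had the sign of the other arrays. Endothelial genes were below 0 on all arrays in 6 of 7 (85.7%, against 18.5% of rows), with a median of -0.55. Their part in the ratios of the splicing genes was not tested.

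No splicing factor or hnRNP gene passed limma's threshold of an adjusted p of 0.05 over all 19015 rows. The background was 0% of rows, and the adjusted p of the members ran from 0.359 to 0.994. An ordinary one-sample test on the same values also passed 0 members, and with 3 arrays an exact two-sided sign-flip test of a single gene cannot go below p = 0.25. At an unadjusted limma p under 0.05 there were 7 members (12.7%, against 9.24% of all rows), of which 4 were above 0 (7.27%, against 4.17% of all rows) and 3 below 0 (5.45%, against 5.07%). The ordinary one-sample test had 5 above and 2 below at that level (12.7%, against 9.62%). By limma, the 4 above were Hnrnpab, Sf3a3, Srsf11 and Sf3b6, and the 3 below were Hnrnpc, Snrpa and Hnrnpl. Apart from Hnrnpab, their mean differences were 1.7-fold or less. With the sign of array 3 turned, none of these 7 was left at that level, and Prpf8 was there in their place; their means then kept their signs but ran only from -0.31 (Hnrnpl) to 0.28 (Sf3b6). Without array 1, Hnrnpab and Snrpc were at that level (3.64% of members, against 3.87% of rows); without array 2, Hnrnpab, Hnrnpc, Sf3a3, Sf3b1 and Snrpa (9.09%, against 5.36%); without array 3, all of the 7 but Hnrnpc, and Snrpb besides (12.7%, against 12.3%).

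Most members lay near an equal level at both ages. The median of their mean log2 ratios was 0.029, against -0.0084 for all rows, and the median size without sign was 0.22, against 0.23. A mean of at least 2-fold was found for 2 members (3.64%, against 4.7% of rows), Hnrnpab and Snrpc, and one of at least 1.5-fold for 10 (18.2%, against 14.1%). The median standard deviation over the 3 arrays was 0.26, against 0.34 for all rows. One sign on every array was found for 24 members (43.6%, against 35.3% of rows): 15 above 0 (27.3%, against 16.8% of rows) and 9 below (16.4%, against 18.5%), while 31 had mixed signs. With each feature as a row, 14 of 61 member features were above (23%, against 16.8%) and 9 below (14.8%, against 18.4%). Of the 24 members, 4 (Hnrnpab, Srsf1, Srsf2 and Snrpn) had a feature of mixed sign. At least 1.2-fold above 0 on each array there were 4 (7.27%, against 4.76%), and at least 1.2-fold below there were 3 (5.45%, against 5.62%), the same 7 genes as at the unadjusted p. At 1.5-fold on each array 2 were above (3.64%, against 1.19%) and 1 below (1.82%, against 1.33%). The larger share above 0 depends on the scaling and on array 3. With each array centred on its median, 12 members were above (21.8%, against 17.8% of rows) and 11 below (20%, against 18%). Without array 3, 20 were above 0 on the other arrays (36.4%, against 35.8%). With array 3 turned, 5 were above (9.09%, against 18.9%) and 5 below (9.09%, against 10.3%). That turn cannot show a dependence, since no gene above 0 on all 3 arrays can stay so after it.

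**Figure D1:**
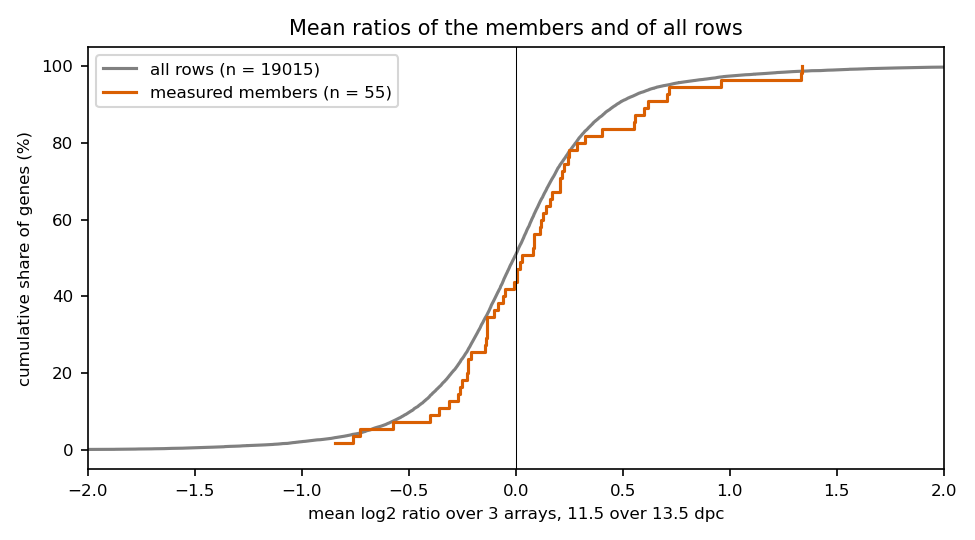
Cumulative share of genes (y axis, %) by mean log2 ratio over 3 arrays, 11.5 over 13.5 dpc (x axis, cut at 2 log2 units on either side), for all 19015 rows (grey) and the 55 measured members (orange steps). The curves run close together around medians of -0.0084 and 0.029.

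The hnRNPs bind nascent transcripts and take part in splicing, export and stability. Of the 15 measured, 2 were above 0 (13.3%, against 16.8% of rows) and 3 below (20%, against 18.5%) on all arrays. The median was -0.061. Hnrnpc encodes the C proteins, which bind uridine tracts and guard against the use of cryptic exons. It had -1.11, -0.44 and -0.74 on arrays 1, 2 and 3. All 3 arrays were below 0, with a mean of -0.76 ± 0.34, the error being the SD over 3 arrays here and below, which is 1.7-fold lower at 11.5 dpc (limma adjusted p = 0.508). Hnrnpl, which binds CA-rich repeats, had -0.67, -0.65 and -0.41. Again every array was below 0, at a mean of -0.58 ± 0.15 (limma adjusted p = 0.516). Its paralog Hnrnpll, best known for CD45 splicing in lymphocytes, had -0.47, -0.30 and 0.14, with array 3 on the other side of 0.

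Hnrnph1 and Hnrnph2 bind runs of G. Hnrnph1 had -0.17, -0.23 and -0.39, below 0 throughout, and a mean of -0.26 ± 0.12. For Hnrnph2 the mean was -0.13 ± 0.20, with array 3 above 0. Hnrnpd (AUF1) and Hnrnpdl, related proteins that also act on AU-rich mRNAs and whose genes lie near each other, had means of 0.25 ± 0.27 and -0.22 ± 0.26. Both had mixed signs, Hnrnpd on array 3 and Hnrnpdl on array 1. Hnrnpr, a relative of the protein Syncrip, had 0.39, 0.55 and 0.030, all above 0 but close to it on array 3.

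Hnrnpab, which encodes the A/B protein also called CBF-A, had the highest mean of all members, 1.34 ± 0.32 (limma adjusted p = 0.359), and stood at rank 250 of the 19015 rows from the top. It is the average of 2 features that disagree by 2.30 log2 units. The feature designed on the RefSeq mRNA had 0.38, -0.029 and 0.21 on arrays 1, 2 and 3, with a mean of 0.19 ± 0.20 (limma adjusted p = 0.72 with each feature as a row). The other feature, designed on another sequence record, had 1.89, 2.36 and 3.21, with a mean of 2.49 ± 0.67 (limma adjusted p = 0.345). Only the second feature lay far from 0, and the feature that matches the reference mRNA had a mean within 1 SD of 0. With array 3 turned the mean of Hnrnpab was 0.20. The sequences of the oligonucleotides were not used here, so what each detects was not compared.

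Of the other abundant hnRNPs, Hnrnpa1, Hnrnpa2b1, Hnrnpk and Hnrnpm had means nearer to 0 than that of Hnrnpc. Hnrnpa1, which represses many exons, had -0.20, 0.0079 and -0.47 and a mean of -0.22 ± 0.24, and its 2 features had means of -0.27 and -0.18. Hnrnpa2b1 had -0.050 ± 0.14, the poly(C)-binding Hnrnpk -0.010 ± 0.16 and Hnrnpm 0.021 ± 0.43. Each of these had mixed signs. Hnrnpu, a scaffold-attachment protein, was the least reproducible hnRNP, with -1.01, 0.73 and 0.63: array 1 was low and the other arrays high, so the mean of 0.12 carries an SD of 0.98. Its relative Hnrnpul2 had -0.40, 0.089 and 0.13, also with array 1 alone below 0.

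SR proteins carry an RNA recognition motif and a tail rich in arginine and serine. Of the 9 measured, 3 were above 0 and 3 below on all arrays (33.3% each, against 16.8% and 18.5% of rows), with a median of 0.083. Srsf11, an SR-like protein that was found with U2AF, had 0.48, 0.76 and 0.62. Its 3 arrays lay close together above 0, with a mean of 0.62 ± 0.14, 1.54-fold (limma adjusted p = 0.496). Srsf10, an SR-like protein that represses splicing when dephosphorylated, had a mean of 0.16 ± 0.092, also above 0 throughout. Srsf6 had -0.75, -0.16 and -0.30 and Srsf4, the related protein with a long arginine-serine tail, had -0.10, -0.17 and -0.66. Both were below 0 on each array, at means of -0.40 ± 0.31 and -0.31 ± 0.30, and neither differed from 0 at an unadjusted p of 0.05 (limma adjusted p = 0.58 and 0.633).

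Of the other SR proteins, Srsf1, Srsf2, Srsf3 and Srsf5 had means nearer to 0 than those of Srsf4 and Srsf6. Srsf1 (SF2/ASF) averaged 0.11 ± 0.15 over 3 features with means of 0.35, -0.054 and 0.049. Srsf2 (SC35) averaged -0.085 ± 0.093 over 2 features with means of 0.10 and -0.27. In both genes the features differ in sign, so the one sign of their averages on all arrays is not shared by every feature. Srsf3, the smallest of these SR proteins, had 0.083 ± 0.23, and Srsf5 had 0.029 ± 0.22, with mixed signs in each. Srsf9 had -0.19, 0.14 and 0.90, where array 3 alone gave most of the mean of 0.29. U2AF is a pair of subunits: the large one, U2af2, reads the polypyrimidine tract, and the small one, U2af1, the AG at the intron's end. U2af2 had -0.15, -0.27 and -0.40, below 0 on all arrays (mean -0.27 ± 0.13, limma adjusted p = 0.618), and U2af1 had 0.35, 0.10 and -0.21, with mixed signs.

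**Figure D2:**
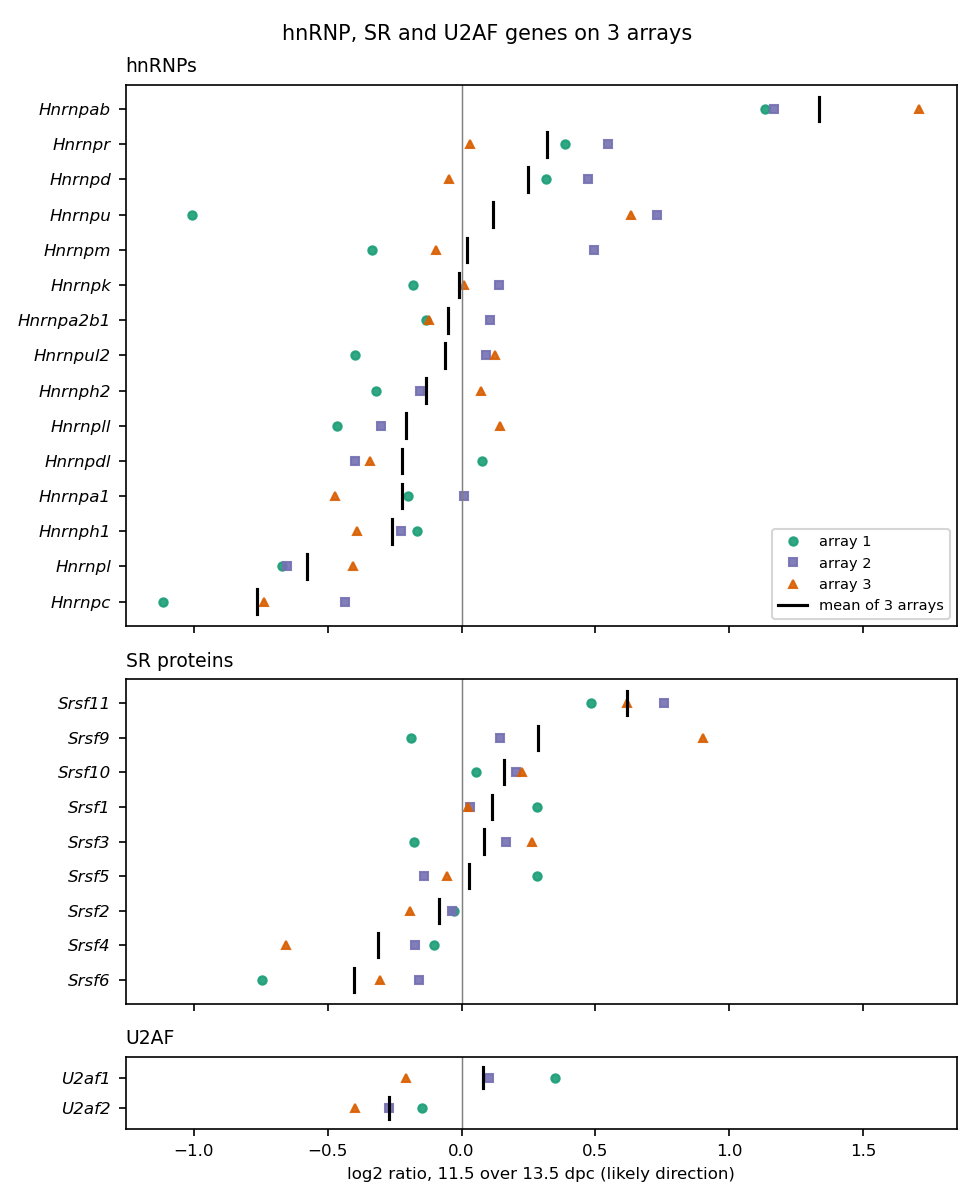
Log2 ratios (x axis, 11.5 over 13.5 dpc) of the hnRNP, SR and U2AF genes, each point being 1 array (circle, square and triangle for arrays 1, 2 and 3) and each black line the mean of the 3. Hnrnpc and Hnrnpl lie below 0 and Srsf11 and Hnrnpab above 0 on every array, while Hnrnpu has array 1 apart from the others.

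**Figure D3:**
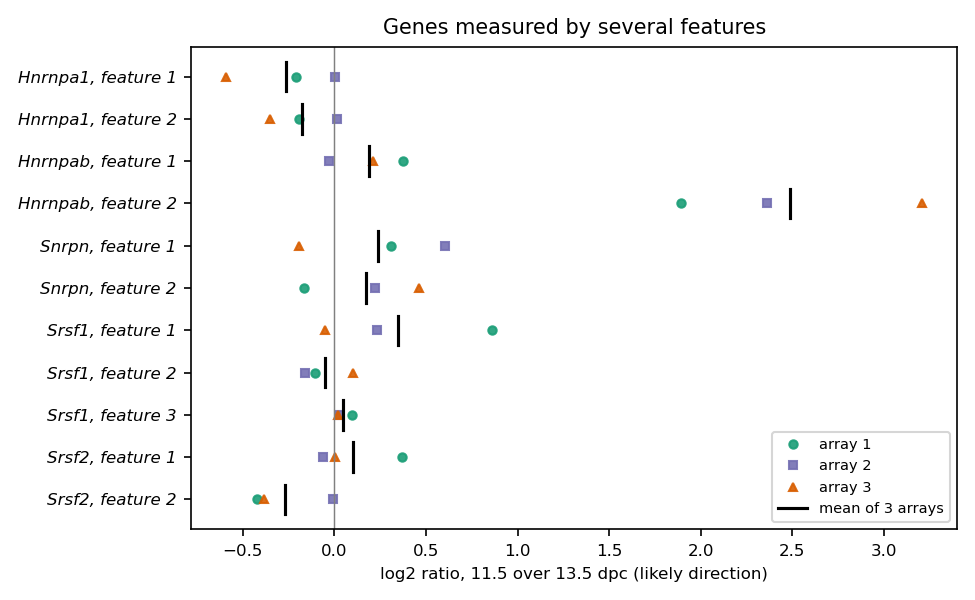
Log2 ratios (x axis) of the 11 features of the 5 genes with several, marked by array as circles, squares and triangles with a line at the feature's mean. Features are numbered in library order; the second feature of Hnrnpab stands at 2.49, the first at 0.19.

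SF3A and SF3B are parts of the U2 snRNP that hold the branch point. Among the 7 measured subunits, 2 were above 0 on all arrays (28.6%, against 16.8% of rows) and none below (0%, against 18.5%). The median was 0.0046. Sf3a3, the SF3A subunit that bridges SF3A to the rest of U2, had 0.75, 0.65 and 0.76. These 3 values are nearly equal, and the mean was 0.72 ± 0.062, 1.64-fold higher at 11.5 dpc (limma adjusted p = 0.425). The other SF3A subunits did not share that value: Sf3a1 had -0.51, 0.17 and -0.34 and Sf3a2 had -0.10, 0.38 and -0.26, both with array 2 alone above 0. Sf3b6, the subunit known as p14 that sits at the branch point adenosine, had 0.76, 0.48 and 0.41 and a mean of 0.55 ± 0.18 (limma adjusted p = 0.517). Sf3b1, the large scaffold of SF3B, had 0.94, -0.25 and 1.10, with array 2 on the other side of 0 and a mean of 0.60 ± 0.74. Sf3b3 had a mean of -0.36 ± 0.49 and Sf3b5 one of -0.14 ± 0.44, each with mixed signs. Subunits of one complex thus covered the range from -0.36 to 0.72.

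The Snrp genes encode the proteins of the snRNPs. Of the 12 measured, 7 were above 0 on all arrays (58.3%, against 16.8% of rows) and 2 below (16.7%, against 18.5%). The median was 0.19. The Sm proteins form the ring around the U snRNAs. Snrpg had 0.22, 0.18 and 0.28, Snrpe had 0.17, 0.061 and 0.19 and Snrpd1 had 0.26, 0.047 and 0.20. Every value of these 3 genes was above 0 and under 0.3. Snrpd2 had a mean of 0.21 ± 0.16, and Snrpb, which encodes the B proteins, 0.56 ± 0.50, with a range from 0.064 on array 3 to 1.05 on array 1. Snrpn, an imprinted relative of Snrpb expressed from the paternal allele, averaged 0.20 ± 0.18. Its features had means of 0.24 and 0.17, each of them with 1 array below 0.

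For Snrpf the mean was 0.083 ± 0.21, with array 2 below 0, and for Snrpd3, which pairs with the B proteins in the ring, -0.14 ± 0.11, below 0 on all arrays. Over the 8 genes of the ring, 6 were above 0 on all arrays (75%, against 16.8% of rows), Snrpn only as the average of its features. The median was 0.19, with 0.21, 0.054 and 0.16 on arrays 1, 2 and 3. The median of all rows was 0.011, 0.064 and -0.091 on the same arrays, so that on array 2 the ring was level with the rest of the table. After each array was centred on its own median, 3 of the 8 were above 0 on all arrays (against 17.8% of rows) and the median was 0.19. With array 3 turned none was (against 18.9% of rows), and the median was 0.039. The 6 could not have stayed above 0 after that turn. No single gene of the ring reached an unadjusted limma p of 0.05.

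Proteins specific to U1 and U2 lay on both sides of 0. Snrpa, the A protein of U1, had -0.61, -0.59 and -0.99. All arrays were below 0, at a mean of -0.73 ± 0.22, 1.66-fold lower at 11.5 dpc (limma adjusted p = 0.472). Snrpc, the C protein of U1, which contacts the 5′ splice site, had -0.057, 2.16 and 1.90: arrays 2 and 3 were high and array 1 was not. Its mean of 1.33 ± 1.21 came just after that of Hnrnpab among the members, but its limma adjusted p was 0.544, and with array 3 turned the mean was 0.066. Snrnp70, the third U1 protein, whose symbol lies outside the pattern, had -0.55, 0.34 and -0.085. Of the U2 proteins, Snrpb2 had 0.36, 0.29 and 0.080, above 0 throughout, and Snrpa1 had 0.17, 0.052 and -0.21.

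The Prpf genes were the least reproducible family, with a median SD over the arrays of 0.58, against 0.34 for all rows. Of the 10, only Prpf19 was above 0 on all arrays (10%, against 16.8% of rows), and none was below (0%, against 18.5%). Prpf19 is a ubiquitin ligase that gives its name to a complex needed for the active spliceosome; it had 0.21, 0.94 and 0.057, with most of its mean of 0.40 from array 2. Among proteins of the U4/U6 particle, Prpf4 had -0.56, -2.04 and 0.064, Prpf3 had 0.020, 0.97 and -0.35 and Prpf31 had 0.080, -0.13 and -0.25. Each of the 3 crossed 0, and array 2 was the extreme one in Prpf4 and Prpf3. Prpf31 is a gene of inherited retinal degeneration, as are Prpf3, Prpf4, Prpf6 and Prpf8.

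At the heart of U5, Prpf8 had 1.07, 0.26 and -0.95, falling on both sides of 0 with a mean of 0.13 ± 1.02. Prpf6, which bridges U5 and U4/U6, had 0.26, -0.34 and 2.20, where array 3 stood far above the others. The largest spread of all members was that of Prpf40b, a relative of a yeast U1 protein, with -0.026, -1.92 and 4.83 and a mean of 0.96 ± 3.48, which was -2.26 with array 3 turned. For these 3 genes the sign of the mean is thus set by single arrays. The remaining members had means of -0.25 ± 0.30 (Prpf18, a factor of the second step), -0.14 ± 0.42 (Prpf38b) and -0.14 ± 0.19 (Prpf4b, a kinase of splicing proteins), all with mixed signs.

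**Figure D4:**
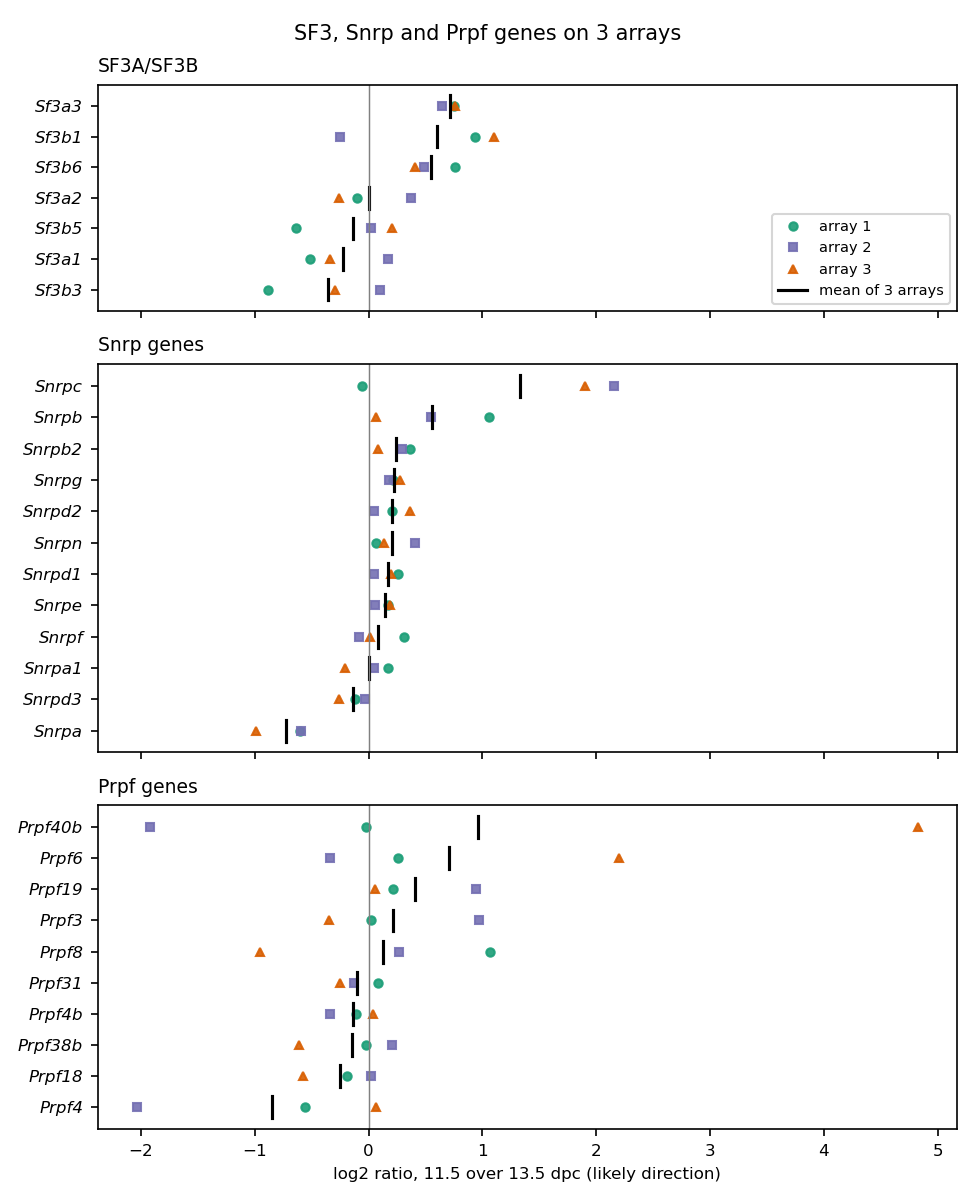
Log2 ratios (x axis, 11.5 over 13.5 dpc) of the SF3, Snrp and Prpf genes by array, with a black line at each mean. The 3 points of Sf3a3 and of most Sm ring genes lie close together, whereas those of Prpf40b run from -1.92 to 4.83.

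**Figure D5:**
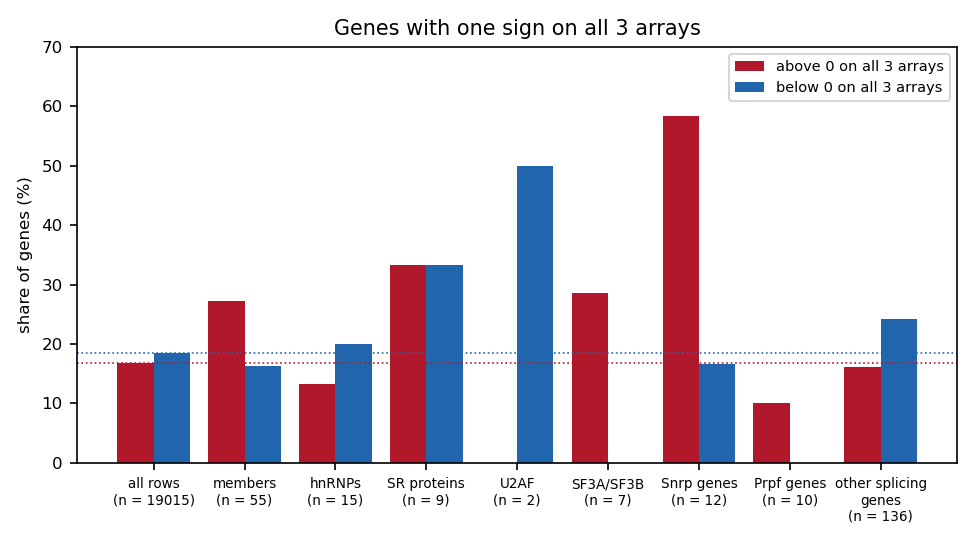
Share of genes (y axis, %) above 0 (red) and below 0 (blue) on all 3 arrays, for all rows, the members, the 6 families and other splicing genes; dotted lines are the shares of all rows (16.8% and 18.5%). The Snrp genes have 58.3% above 0 and the Prpf genes 10% above and 0% below; families hold 2 to 15 genes.

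The members of the same family were spread through the array's library unevenly. Of the 61 measured features, 23 stood in one run of the library (numbers 1591 to 1689) and 15 in another (12636 to 12745). A running median along the library at these places lay between -0.045 and 0.043 in the first run and between -0.016 and 0.070 in the second, over the 3 arrays. At the member features as a whole it ran from -0.092 to 0.19 on array 1, -0.020 to 0.26 on array 2 and -0.16 to 0.024 on array 3. Subtracting it took the mean of Snrpd2 from 0.21 to 0.083 and the median of the Sm ring from 0.19 to 0.12. With that running median subtracted, the same 7 members had an unadjusted limma p under 0.05. Over the members, arrays 1 and 2 gave one sign for 61.8% of genes, arrays 1 and 3 for 63.6% and arrays 2 and 3 for 61.8%, against 64.5%, 54.9% and 51.2% of all rows.

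Other genes of the splicing pathway, in 6 lists that hold no member, gave 0 genes past limma's adjusted threshold among 136 measured of 165 listed. At an unadjusted limma p under 0.05 there were 4 above 0 (2.94%, against 4.17% of rows) and 3 below (2.21%, against 5.07%), fewer than in the table as a whole. On all arrays 22 were above 0 (16.2%, against 16.8% of rows) and 33 below (24.3%, against 18.5%), and the median was -0.015. Of the core snRNP and Lsm genes, 4 of 24 were above (16.7%, against 16.8% of rows) and 5 below (20.8%, against 18.5%). Lsm1 had 0.60 ± 0.51 and Ppih, a cyclophilin of the tri-snRNP, 0.41 ± 0.20. Sart1 and Usp39, which join the tri-snRNP to the spliceosome, had -0.61 ± 0.28 and -0.49 ± 0.34. Of the Prp19 complex, helicase and step factor genes, 5 of 26 were above (19.2%, against 16.8% of rows) and 7 below (26.9%, against 18.5%). Cdc40 was at 0.71 ± 1.08, Bcas2 at 0.49 ± 0.38, Xab2 at -0.43 ± 0.40 and Ddx39b at -0.40 ± 0.29.

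Exon junction genes had 1 of 8 above and 1 below (12.5% each, against 16.8% and 18.5% of rows). Rbm8a (Y14), a core protein of the junction complex, had 0.96, 0.71 and 0.59 and a mean of 0.75 ± 0.19 (limma adjusted p = 0.466), and the export adaptor Alyref had -0.16 ± 0.074. Among SR-like genes and SR kinases, 3 of 22 were above (13.6%, against 16.8%) and 6 below (27.3%, against 18.5%). Tra2a, a partner of SR proteins on exon enhancers, had 1.16, 0.93 and 0.43 (adjusted p = 0.496 with limma) and Scaf8 a mean of 0.58 ± 0.16; Sfswap and the kinase Clk1 had -0.37 ± 0.48 and -0.36 ± 0.078.

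The regulators that set tissue-dependent splicing had 3 of 33 above 0 (9.09%, against 16.8% of rows) and 8 below (24.2%, against 18.5%) on all arrays. Their median was -0.11. Rbfox1 had 0.89, 0.29 and 0.50 and Ptbp1, a repressor of neuronal exons, 0.12, 0.088 and 0.17, both above 0 throughout. Khdrbs3, a STAR protein, had -0.18, -2.46 and -1.47, and the mRNA-binding protein gene Elavl1 a mean of -0.47 ± 0.32. The epithelial splicing regulators Esrp1 and Esrp2 had means of 0.22 ± 0.24 and -0.19 ± 0.44, with mixed signs; they set the epithelial form of FGF receptors, and were singled out with their values known. Of the hnRNP-like genes without the prefix, 6 of 23 were above and 6 below (26.1% each, against 16.8% and 18.5% of rows). Taf15 had 1.23 ± 1.33, Khsrp 0.31 ± 0.20, Fxr2 -0.54 ± 0.39 and Pcbp4 -0.44 ± 0.16. With array 3 turned, the means of Taf15, Fxr2, Cdc40, Bcas2, Xab2 and Sfswap changed sign.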

How the data were processed

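The authors deposited log2 ratios of the 2 ages for 3 arrays; the base was found from the values, since 2 to the power of each value between -3 and 2 is a whole multiple of 0.001 (within 0.02 of a step) for 100% of them. Per the labels, ImaGene 5.5 read the images; they give 2 accounts of the normalisation: print-tip loess with a step between arrays, or a Lowess curve over 20% of the data with control values under 10 set to 10. The sources used here do not settle which applies, and spot intensities, and so background and saturation, were not used here.

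Of 22702 features, 883 controls or blanks were left out. Features with values on all arrays (20386) were kept and those of 1 symbol averaged, giving 19015 rows. Symbols come from the platform annotation (16656 features with 1 symbol, 137 with several, left unnamed, and 5026 with none). No filter on signal could be applied.

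In R 4.3.3, limma 3.58.1 compared each mean ratio with 0, two-sided, by eBayes after lmFit, and p-values were adjusted by Benjamini-Hochberg over all rows. The procedure was tested on simulated data. The number of arrays limits the precision. Array 3 was used as deposited, its orientation not being settled by the labels. Alternatives were its sign turned, median centring, scaling, quantile normalisation, a dye term, array weights, single features, values on at least 2 arrays, a running median along the library, an ordinary one-sample test, fold limits and leaving out each array. Named were, per family, up to 3 highest and 3 lowest of one sign, the smallest p, the largest SD, all at an unadjusted p under 0.05, genes with discordant features and a list of core factors; of other splicing genes, up to 2 per list and direction. Other members are described besides. Snrnp70, Esrp1, Esrp2 and the marker genes named were singled out after their values were seen. Members and lists were chosen with earlier results of these data known. Further marker lists gave, by median, -0.21 (kidney), -0.13 (proliferation), -0.28 (neural crest and neuron) and 0.19 (macrophage).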

Additional observations from a re-analysis of the deposited data

How the results depend on the processing

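No member and no other splicing gene passed limma's adjusted threshold under any alternative run. Each ratio already compares the ages within an array, so no further block was fitted. Of the 24 members of one sign, 4 had a mean of the other sign with array 3 turned: Srsf4 had 0.126, Srsf2 0.0429, Snrpd3 0.0353 and Snrpd2 -0.0387. Of the other genes, Taf15 had -0.595, Fxr2 0.119, Cdc40 -0.592, Bcas2 -0.0826, Xab2 0.165 and Sfswap 0.246. With array 3 turned, 5 members were above 0 (9.09%, against 18.9% of rows) and 5 below (9.09%, against 10.3%) on all arrays. Of 12 Snrp genes 1 was above, and of 8 Sm ring genes 0, against the same 18.9%. Of 136 other splicing genes 27 were above (against 18.9% of rows) and 12 below (against 10.3%). At an unadjusted limma p under 0.05, 1 member was above and 0 below (1.82% together, against 6.58% of rows). The medians were 0.0429 (SR), 0.0539 (Snrp), 0.101 (Prpf) and 0.0394 (Sm ring). The cause was not tested, and a gene of one sign on all arrays cannot remain so after that turn.

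Median centring, centring with scaling and quantile normalisation each left 4 of 12 Snrp genes above 0 on all arrays. They left 3 of 8 Sm ring genes (both against 17.5% to 17.8% of rows), since the small ratios on array 2 lie near its median. Each left 12 members above (21.8%, against 17.5% to 17.8% of rows) and 11 below (20%, against 18% to 18.4%). With the running median subtracted there were 13 and 11 (23.6% and 20%, against 17.5% and 17.6%). At least 1.2-fold on each array left 4 members above (7.27%, against 4.76% of rows) and 3 below (5.45%, against 5.62%). A limit of 1.5-fold left 2 above (3.64%, against 1.19%) and 1 below (1.82%, against 1.33%). The Prpf median was 0.013 and became 0.078 with quantile normalisation and -0.116 with a dye term, and the SR median 0.0472 with the running median. The causes were not tested. Leaving out 1 array, the members above 0 on the rest were 18 to 22 (40%, 32.7% and 36.4% without arrays 1, 2 and 3, against 24.5%, 23.8% and 35.8% of rows). Those below were 12 to 17 (21.8%, 30.9% and 25.5%, against 26.7%, 31.1% and 28.8%), as fewer arrays had to agree. Of 136 other splicing genes, 29, 36 and 49 were above 0 without arrays 1, 2 and 3, and 44, 43 and 45 were below. The row shares beside them are those just given. Members at an unadjusted p under 0.05 were 2 to 5 above and 0 to 2 below (3.64%, 9.09% and 12.7%, against 3.87%, 5.36% and 12.3% of rows); without array 1 they were Hnrnpab and Snrpc. The medians without 1 array ran from -0.00608 to 0.115 (SR), -0.182 to 0.138 (SF3), -0.17 to -0.0318 (Prpf) and -0.0392 to 0.0578 (all members), so these have no settled sign.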
